A study of Caenorhabditis elegans with 2 samples.

Results

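The regions described here are those that ranked directly below the peak threshold in a ChIP-seq experiment on ZTF-4, a zinc finger protein of Caenorhabditis elegans, and they are called sub-threshold regions. The pooled list of the experiment held 30000 regions on the build ce11, ordered here by the authors' signal value, and its highest regions had passed the threshold of the irreproducible discovery rate (IDR) as peaks. As many regions again as there were peaks, ranked directly below them, were taken. Of these, 65 overlapped a peak by 1 bp or more and were dropped, which left 1729 sub-threshold regions (5.76% of the pooled list). They were chosen by their pooled signal value alone. They were compared with 3 other sets of the same list. These were the peaks, the 1698 regions of an equally long band next below (without overlaps) and a tail of 14656 regions, left from the 15000 of lowest signal after overlaps were dropped.

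The animals were whole L2 larvae of both sexes from strain OP322, unc-119(ed3) III; wgIs322. In that strain an inserted transgene (wgIs322) expresses ZTF-4 with a tag of enhanced green fluorescent protein in an unc-119 mutant background. There were 2 biological replicates of 1 group, with no untagged or mutant group, and both replicates list the same possible control, which was not analysed here. How deeply the libraries were sequenced is unknown, since no read counts stand in the lists. The pooled list contains the reads of both replicates, so each replicate's own list is not independent of the choice of regions. A whole-animal sample cannot tell a site used in few cells from a weak site used in many.

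In ChIP-seq, DNA fragments bound to a protein are recovered with an antibody and sequenced, and places where fragments pile up are listed as regions with a summit. IDR compares how the replicates rank the same regions and draws a threshold where the ranks stop matching. Zinc finger proteins of this kind bind DNA through small folded domains that hold a zinc ion, and in C. elegans many tagged factors are recovered at promoters of genes that most cells use.

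The highest sub-threshold region and further high ones that carry the short sequence words discussed later are shown first. Each line gives the summit base with 50 bases on either side, on the plus strand of ce11 (the RefSeq copy of WBcel235), 5′ to 3′. Capitals mark matches, on either strand, to AGAGAG or its shifted form GAGAGA, to the related AAGAGA or AGAGAA or the more A-rich AAAAGA, to ACGCAG or the overlapping GACGCA, and to GAGCGC or the unrelated CTGGAA. The first window, of the highest sub-threshold region, lay between genes 2908 bp upstream of the start site of oct-2 (an organic cation transporter family gene) at chrX:11343497-11343597. The second lay in an intron of gln-3, which encodes a glutamine synthetase, at chrIV:16169959-16170059, and was the highest with AGAGAG. The third lay 500 bp upstream of rsu-1, whose human relative is a Ras suppressor, at chrIII:3471453-3471553, and was the highest with AAGAGA. The fourth, at chrX:13448796-13448896, was the highest with AAAAGA and its right end reached into a transfer RNA gene. The last pair was chosen after the values were seen, as the highest with GAGCGC, 113 bp upstream of nmat-1 at chrX:12018106-12018206, and the highest with CTGGAA, in an intron at chrIII:10818318-10818418, nearest to the start site of sca-1.
near oct-2: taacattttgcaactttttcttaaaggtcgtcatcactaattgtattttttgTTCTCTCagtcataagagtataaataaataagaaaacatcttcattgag
in gln-3: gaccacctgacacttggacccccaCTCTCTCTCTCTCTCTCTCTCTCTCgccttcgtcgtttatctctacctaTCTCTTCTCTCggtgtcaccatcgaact
upstream of rsu-1: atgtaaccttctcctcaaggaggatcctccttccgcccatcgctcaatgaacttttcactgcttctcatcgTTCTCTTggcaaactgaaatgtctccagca
beside a transfer RNA gene: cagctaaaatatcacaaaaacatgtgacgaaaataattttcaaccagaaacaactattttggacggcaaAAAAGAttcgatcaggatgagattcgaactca
upstream of nmat-1: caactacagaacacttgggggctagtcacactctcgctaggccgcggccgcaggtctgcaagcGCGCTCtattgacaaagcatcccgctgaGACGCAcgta
near sca-1: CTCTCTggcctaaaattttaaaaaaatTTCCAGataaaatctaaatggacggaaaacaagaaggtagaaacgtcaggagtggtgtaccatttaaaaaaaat
The windows differed widely in composition. GC content was 26.7% near oct-2 and 59.4% upstream of nmat-1, and 36 bases of the gln-3 window belonged to a marked word.

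The sub-threshold regions filled a narrow range of signal that ran on from the peaks without a gap. Their pooled signal lay between 43.1 and 60.1 with a median of 49.7. Peaks lay between 60.2 and 843 (median 83.0), the next band between 35.8 and 43.1, and the tail between 15.1 and 22.5. The values just inside and outside the threshold were close to each other. The first 200 sub-threshold regions had a median signal of 58.0, with 39.5% near a start site (at most 500 bp from one of a protein-coding gene) and a median GC content of 41.6%. The last 200 peaks had a median signal of 62.3, with 42.5% near a start site and a median GC content of 42.6%. At the lower edge, the last 200 sub-threshold regions (36% near a start site, GC 35.6%) lay beside the first 200 of the next band (32% and 36.6%). Nearly all of the sub-threshold regions (1727) were 364 bp wide, and the others were 99 and 109 bp wide.

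The q-value that the authors deposited with each region would by itself have passed most of them. Of the 1729, 1515 (87.6%) had q under 0.05 and 493 (28.5%) had q under 0.01, with −log10 q between 1.19 and 3.10. In the next band 0 of 1698 regions had q under 0.05. Of the peaks, 1696 sat at the highest −log10 q of the list (3.53), and 0 of the sub-threshold regions did. Both q and signal come from the pooled reads, so these counts describe the range that the rule selected.

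The replicates mostly both listed a region at these places but ranked it differently. Of the 1729, 1709 overlapped some region of replicate 1, 1718 some region of replicate 2, 1698 one in both, and 0 none in either. Their rank in replicate 1 ran from 541 to 28057 (median 3353), with signals of 9.39 to 50.2 (median 23.9). Their rank in replicate 2 ran from 612 to 28735 (median 3108.5), with signals of 8.64 to 56.4 (median 26.3). The middle of each distribution was narrower than these extremes, with rank quartiles of 2109 and 5611 in replicate 1 and of 2144 and 4824 in replicate 2.

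Few sub-threshold regions were high in both replicates. The top of a replicate is here as many of its highest regions as there were peaks. Of the sub-threshold regions, 308 (17.8%) matched one in replicate 1 and 260 (15.0%) matched one in replicate 2, but only 8 (0.463%) matched one in both. Another 1169 (67.6%) matched one in neither. Of the peaks, 63.4% matched one in both, and of the next band 0.118%. With 3 times as many of the highest regions of each replicate, 923 sub-threshold regions (53.4%) matched one in both, against 96.3% of peaks, 10.8% of the next band and 0.362% of the tail. These shares follow from signals that the rule used and are given without a test. Over the 1698 regions matched in both replicates, the replicate signals had a rank correlation (Spearman's rho) of -0.51, and Pearson's r was -0.48. The points share a narrow range of pooled signal, and the pooled signal was close to the sum of the replicate signals (their ratio had a median of 1.00 and quartiles of 0.944 and 1.06). A high signal in one replicate thus left less room for a high one in the other. At its extremes the ratio was 0.756 and 1.65. The lowest signal in the top was 30.5 in replicate 1 and 34.5 in replicate 2. The highest pooled signal of a sub-threshold region was 60.1. The coefficients hold within this selected range and were not tested.

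**Figure D1:**
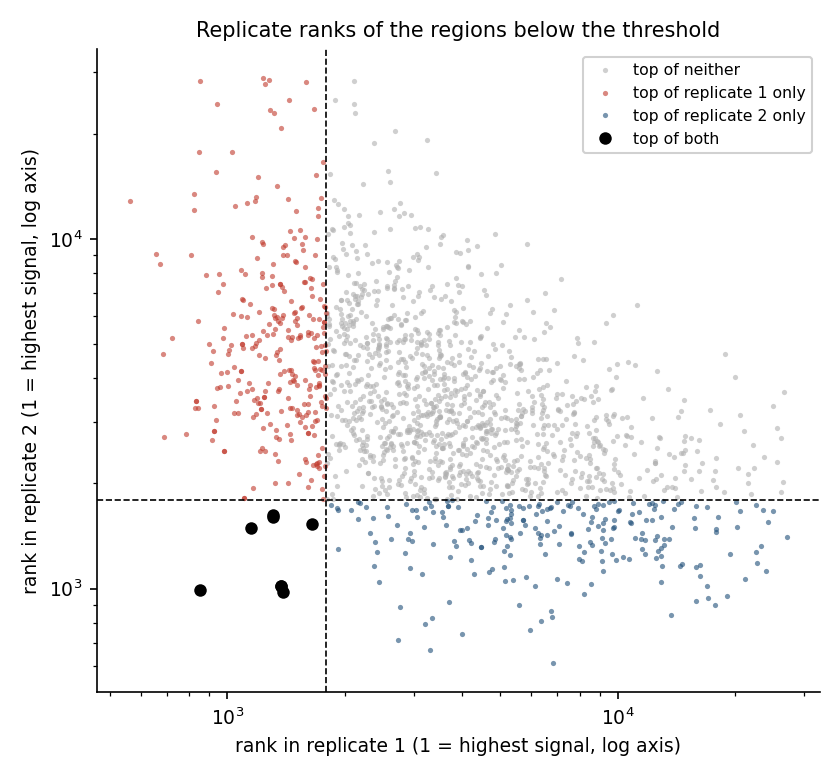
Rank of each of the 1698 sub-threshold regions matched in both replicates, in replicate 1 (x axis, log scale) and in replicate 2 (y axis, log scale), where rank 1 is the highest signal. Dashed lines mark the rank of the last peak; the corner below both holds 8 regions.

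The 8 regions in the top of both replicates lay outside promoters, as did 1066 of all 1729 sub-threshold regions. Whether the 8 differed from the rest was not tested. The best ranked of the 8 lay 2358 bp upstream of mstr-1, at rank 851 in replicate 1 (signal 41.6) and rank 994 in replicate 2 (signal 45.4). Its pooled signal was only 55.1. A replicate's value is that of the highest region overlapped by 1 bp or more. It can therefore belong to a neighbouring site, here and for the other regions. A pair with summits at chrI:9379985 and chrI:9379728 matched the same regions of both replicates (rank 1375 with signal 33.9 in replicate 1, rank 1020 with signal 45.0 in replicate 2). The summit of the first, with a pooled signal of 57.0, lay inside the gene of the microRNA mir-71, which itself lies within ppfr-1. The second had a pooled signal of 54.8. The others lay 507 bp upstream of pmpl-1, in an exon of the noncoding gene Y41C4A.29, in introns of egl-44 and T26A8.4, and between genes near ZC190.5. egl-44 encodes a TEAD family transcription factor; its region had signals of 34.6 in replicate 1 and 36.2 in replicate 2. The count of 8 was 13 with the ce10 lists and 3 when the overlap had to cover 50% of both regions.

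Of the regions matched in both replicates, the most unequal were nearly at the bottom of one replicate's list. The region in an intron of egl-4, which encodes a cGMP-dependent protein kinase, had a signal of 35.5 in replicate 1 (rank 1235) and 8.64 in replicate 2 (rank 28735). The regions near the neuropeptide gene nlp-24 (41.6 in replicate 1 and 8.74 in replicate 2), in sms-1, which encodes a sphingomyelin synthase (34.9 and 8.71), nearest to otub-4 (32.0 and 8.79) and in hgo-1, which encodes an enzyme of tyrosine breakdown (35.2 and 8.86), were likewise high in replicate 1 alone. In the other direction, the region upstream of pyc-1, which encodes pyruvate carboxylase, had a signal of 9.598 in replicate 1 (rank 27092) and 38.7 in replicate 2 (rank 1403). Those in dab-1 (9.73 in replicate 1 and 32.5 in replicate 2), casy-1 (9.79 and 33.6), nearest to ZC53.2 (9.80 and 28.2) and near K11H12.8 (10.1 and 35.7) also ranked far higher in replicate 2. Their ranks there were 2021, 1895, 2694 and 1669 in that order. dab-1 encodes an endocytic adaptor and casy-1 encodes calsyntenin. Of these 10 regions, 2 lay near a start site, those at casy-1 and K11H12.8, against 38.3% of all sub-threshold regions. That difference was not tested.

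Regions that only one replicate placed in its top differed somewhat in where they lay, which was not tested. Of the 300 in the top of replicate 1 alone, 36.7% were near a start site and the median GC content was 37.6%. Of the 252 in the top of replicate 2 alone, 43.3% were near a start site and the median GC content was 41.6%. The X chromosome held 16.3% and 18.3% of these sets. The 1169 in the top of neither lay between them, with 38.0% near a start site and a GC content of 38.6%.

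Sub-threshold regions lay near protein-coding start sites less often than peaks and more often than weaker regions. A summit within 500 bp of such a start site, called a promoter region here, was found for 663 of 1729 (38.3%, 95% Wilson interval 36.1 to 40.7%). The share was 48.2% of peaks, 33.9% of the next band and 23.7% of the tail. The odds ratio was 0.668 against peaks (95% interval 0.584 to 0.764, Fisher's exact p = 3.93e-09), 1.21 against the next band (1.06 to 1.397, Fisher's exact p = 0.00687) and 2.00 against the tail (1.80 to 2.22, Fisher's exact p = 6.83e-37). Regions are not replicates of a condition, and neighbours are not independent, so these p-values and all others across regions are too small to an unknown degree. In the lists of the single replicates, the same band held 35.0% promoter regions in replicate 1, where the own top held 46.1% and the own tail 24.7%. It held 39.7% in replicate 2, against 48.6% of the own top and 25.1% of the own tail. The 2 bands were largely different places, since 352 of the 1744 regions of replicate 1 (20.2%) overlapped the 1736 of replicate 2, and 251 sub-threshold regions (14.5%) overlapped both.

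Outside promoters, sub-threshold regions were more often in introns and 3′ UTRs than peaks were. Introns held 342 of 1729 (19.8%, against 13.9% of peaks; odds ratio 1.53, Fisher's exact adjusted p = 1.14e-05) and 3′ UTRs held 62 (3.59%, against 1.95%; 1.87, adjusted p = 0.00870). The 3′ UTR difference did not pass in the band of replicate 1 against that replicate's own top (Fisher's exact adjusted p = 0.0845). Nor did it pass in the upper 862 sub-threshold regions (Fisher's exact adjusted p = 0.171) or against the weaker 897 peaks (Fisher's exact adjusted p = 0.281). Coding exons (2.83% of sub-threshold regions, 1.90% of peaks), exons of noncoding genes (4.57% and 5.13%), 5′ UTRs (0.347% and 0.279%) and intergenic sequence (30.5% and 28.7%) did not pass the threshold of 0.05 on the adjusted p over 7 classes. The bands of the single replicates were compared with each replicate's own top in place of the peaks. There, however, coding exons passed as more frequent (odds ratio 2.31 in replicate 1 and 2.25 in replicate 2). Exons of noncoding genes passed there as less frequent (0.652 and 0.659). Against the tail, coding exons held a smaller share (2.83% against 8.90%, odds ratio 0.298, Fisher's exact adjusted p = 7.43e-22), as did introns (19.8% against 30.05%, 0.574, adjusted p = 1.06e-19). Exons of noncoding genes held a larger share (4.57% against 2.12%, 2.22, Fisher's exact adjusted p = 1.45e-08). A summit counted as a promoter region before any other class, and a lower promoter share leaves more regions for the other classes.

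**Figure D2:**
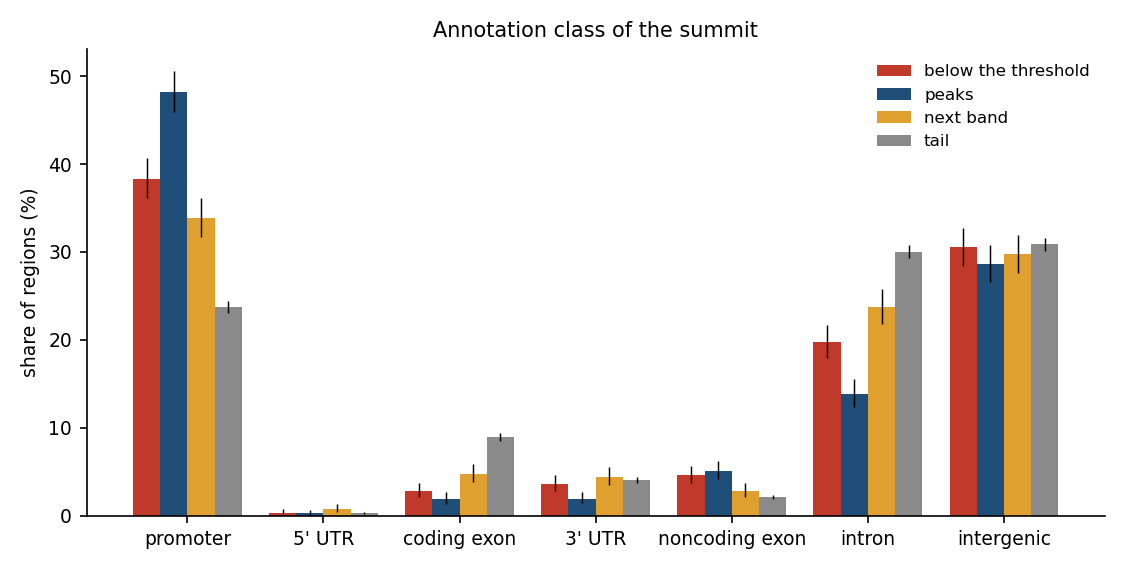
Share of summits in each annotation class (y axis, %) for the 1729 sub-threshold regions, the peaks, the 1698 regions of the next band and the 14656 tail regions; bars start at 0 and lines are 95% Wilson intervals. In promoters the shares were 38.3%, 48.2%, 33.9% and 23.7% in that order, and in introns sub-threshold regions (19.8%) stood above peaks (13.9%).

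Around start sites the sub-threshold regions kept to the upstream side, though less closely than peaks. Of the 663 promoter regions, 498 (75.1%) had their summit upstream of the nearest start site, against 87.2% for peaks (odds ratio 0.444, 0.341 to 0.580, Fisher's exact adjusted p = 2.43e-09). The share was 67.5% in the next band (1.45, 1.14 to 1.86, Fisher's exact adjusted p = 0.00484) and 54.6% in the tail (2.51, 2.08 to 3.03, adjusted p = 5.68e-23). The median position was -139 bp for sub-threshold regions, -168 bp for peaks, -118 bp for the next band and -42 bp for the tail. Annotated start sites in C. elegans are often trans-splice sites, which lie downstream of where transcription begins. The upstream share was 72.0% in the band of replicate 1 and 75.4% in the band of replicate 2.

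**Figure D3:**
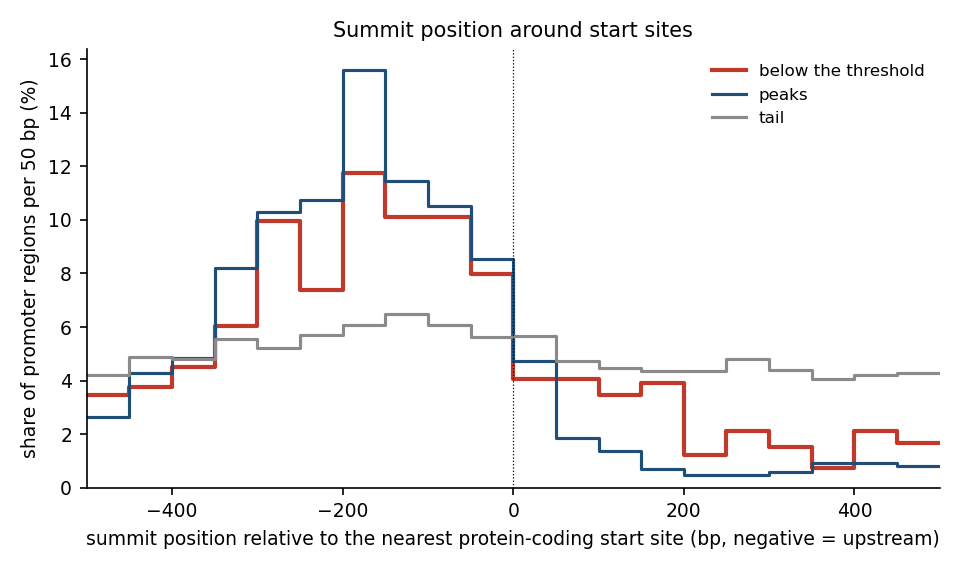
Position of the summit relative to the nearest protein-coding start site (x axis, bp, negative is upstream) among regions within 500 bp of one, as the share per 50 bp (y axis, %). The 663 sub-threshold regions peaked at -200 to -150 bp with 11.8%, as did peaks with 15.6%, and the tail was nearly flat.

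The share of promoter regions near start sites of 2 or more genes, on either strand, was also intermediate. Start sites of 2 or more protein-coding genes lay within 500 bp of 109 of the 663 promoter regions (16.4%), against 23.5% for peaks (odds ratio 0.642, 0.495 to 0.831, Fisher's exact adjusted p = 0.000852). The share was 10.96% in the next band (1.60, 1.15 to 2.23, Fisher's exact adjusted p = 0.00644) and 4.86% in the tail (3.85, 2.98 to 4.98, adjusted p = 7.51e-22). An example is the region between pbs-2, which encodes a proteasome core subunit, and eif-6, a translation factor gene. Its summit lay 316 bp upstream of pbs-2 and 350 bp upstream of eif-6, with signals of 14.1 in replicate 1 and 22.9 in replicate 2. The difference from peaks did not pass against only the weaker 897 peaks (odds ratio 0.766, Fisher's exact adjusted p = 0.102) or with a window of 250 bp (0.743, adjusted p = 0.152).

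Across ranks the promoter share was lower further down the list, and the 95% Wilson intervals of each pair of neighbouring steps overlapped, at the threshold too. In successive steps of 299 ranks, the promoter share of peaks was between 44.1% and 52.5%, that of sub-threshold regions between 31.3% and 42.1%, and that of the next band between 30.8% and 38.5%. The last step of peaks had 46.2% (40.6 to 51.8%) and the first of sub-threshold regions 41.1% (35.5 to 46.8%). Median GC content within 50 bp of the summit was 48.5% in the first step of peaks, 42.6% in the last, 40.6% in the first step of sub-threshold regions and 35.6% in the last.

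**Figure D4:**
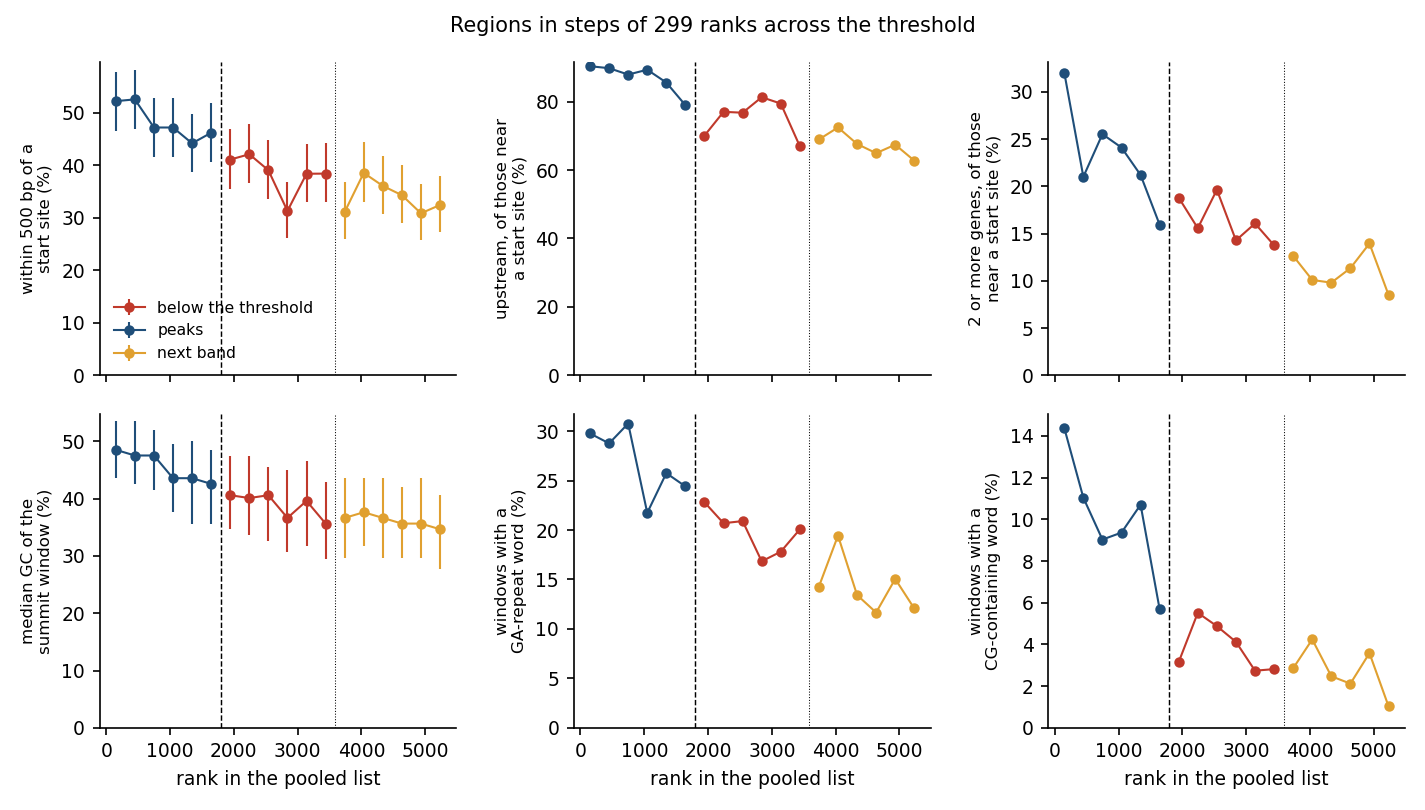
Measures in steps of 299 ranks of the pooled list (x axis) for sub-threshold regions, peaks and the next band; the dashed line is the peak threshold and the dotted line is the end of the sub-threshold band. Lines on the promoter share are 95% Wilson intervals and on GC content quartiles; the GA-repeat word is GAGAGA and the CG-containing word GAGCGC. The promoter share was 41.1% in the first step below the threshold and 46.2% in the last above it, and GAGCGC was in 3.16% and 5.69% of windows.

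Sub-threshold regions lay on the 6 chromosomes much as peaks did. None of the 6 passed the threshold against peaks by Fisher's exact test with adjustment, and chromosome IV alone had an unadjusted p under 0.05 (294 of 1729 sub-threshold regions, 14.2% of peaks, odds ratio 1.24, exact adjusted p = 0.121). Against the tail, chromosomes III (17.8% against 14.8%, odds ratio 1.248, Fisher's exact adjusted p = 0.00726) and II (15.4% against 13.3%, 1.18, adjusted p = 0.0287) held more. Chromosomes X (17.1% against 19.8%, 0.834, exact adjusted p = 0.0191) and IV (those 294 against 19.4% of the tail, 0.853, adjusted p = 0.0287) held less. Of these 4 calls, only III passed in the band of replicate 2 and only II in that of replicate 1. Each of those bands was compared with the own tail of its replicate. Chromosome V, which held less than in the tail (odds ratio 0.880, Fisher's exact adjusted p = 0.0635), passed in both of those bands. Against the next band 0 chromosomes passed by Fisher's exact test.

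Some sub-threshold regions stood close beside a peak. Summits of 150 of the 1729 (8.68%) lay within 1000 bp of a peak's summit, against 2.83% of the tail (odds ratio 3.26, 2.69 to 3.96, Fisher's exact p = 1.03e-27) and 6.36% of the next band (1.399, 1.08 to 1.81, Fisher's exact p = 0.0115). The median distance to the nearest peak was 8945 bp for sub-threshold regions, 10362 bp for the next band and 21657.5 bp for the tail. Of the 150, 48 were promoter regions. The region in unc-23, whose product is a BAG domain chaperone regulator, was 690 bp from a peak and had signals of 32.4 in replicate 1 and 26.8 in replicate 2. Regions that overlapped a peak had been dropped, so the nearest possible summit distance was limited. The tail and the next band had also lost the regions that overlapped a sub-threshold region. How that unequal filter changed these shares was not tested.

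The 20 highest sub-threshold regions with a start site within 1000 bp lay near genes of varied functions. Upstream of rps-8, which encodes a small ribosomal subunit protein, the region had signals of 25.6 in replicate 1 and 25.3 in replicate 2 (pooled 59.6). Upstream of tbb-2, a beta-tubulin gene, it had 22.9 in replicate 1 and 47.1 in replicate 2, and upstream of ints-5, a gene of the Integrator complex, 21.98 and 37.5. The region 362 bp upstream of lin-49, which encodes a bromodomain protein, had 18.03 in replicate 1 and the highest signal in replicate 2 of all sub-threshold regions, 56.4 at rank 612. The one 52 bp upstream of larp-5, a La-related protein gene, was high in replicate 1 (41.1) and lower in replicate 2 (17.2). Those of mrt-2, a DNA damage checkpoint and telomere gene (29.6 in replicate 1 and 29.3 in replicate 2), unc-1, a stomatin-like gene (29.2 and 29.1), F22F7.7 (30.4 and 29.6) and set-18, a SET domain gene (30.1 and 28.1), had close signals in both replicates. Their ranks were less close, in that order 1937, 2001, 1808 and 1856 in replicate 1 and 2495, 2537, 2430 and 2723 in replicate 2. Regions at rsu-1 (22.4 and 35.3), nhr-256, a nuclear hormone receptor gene (21.3 and 40.3), cyn-1, a cyclophilin gene (15.7 and 33.2), and Y48C3A.20 (19.9 and 35.1) were higher in replicate 2. Those at M01H9.3 (38.4 and 22.7), R08C7.12 (36.4 and 25.1) and btbd-10 (34.4 and 27.5) were higher in replicate 1. Those at gln-3 (32.5 and 31.7), Y41C4A.22 (36.6 and 37.5) and Y32F6A.5 (24.7 and 28.7) differed less.

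Of protein-coding genes that had a pooled region but no peak within 500 bp of a start site, 703 of 5761 (12.2%) had a sub-threshold region there. Signal values set both the peaks and the sub-threshold regions, so the counts of gene lists are given beside that share as a description, with no test. Ribosomal protein genes stood at 12 of 22 (54.5%, Wilson interval 34.7 to 73.1%). Besides rps-8, these included rps-29 (16.6 in replicate 1 and 30.5 in replicate 2), rpl-2 (17.1 and 35.4) and rpl-4 (23.7 and 27.0). Of the 70 ribosomal protein genes with a nearby region, 48 (68.6%) had a peak, against 1034 of 6795 protein-coding genes (15.2%). In the bands of the single replicates, 10 of 25 ribosomal protein genes counted in the same way as the 22 had a region in replicate 1 and 9 of 24 in replicate 2.

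Chromatin regulators stood at 6 of 19 (31.6%), with set-18, set-20 (21.4 in replicate 1 and 32.9 in replicate 2), the histone deacetylase gene hda-6 (21.3 and 30.1) and swsn-6, which encodes a SWI/SNF subunit (24.7 and 34.1). Chaperone genes stood at 6 of 21 (28.6%), with the chaperonin gene cct-4 (24.5 and 27.1) and the DNAJ genes dnj-12 (30.5 and 19.2), dnj-28 (39.3 and 29.4) and dnj-29 (19.9 and 26.6). Spliceosome and SR protein genes stood at 3 of 12, with rsp-7 (31.3 and 26.0) and a region between rsp-5 and snr-3 (21.02 and 27.6). Proteasome genes stood at 3 of 14, with rpn-12 (25.3 and 19.7) and rpt-6 (17.4 and 35.2) besides pbs-2. The Wilson intervals of these lists were wide and, except for ribosomal proteins, chromatin regulators and chaperones, included 12.2%.

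Aminoacyl tRNA synthetases, the enzymes that load amino acids on transfer RNAs, stood at 4 of 21, and all 4 were higher in replicate 2. These were iars-2 (15.7 in replicate 1 and 34.7 in replicate 2), vars-1 (16.4 and 34.3), mars-1 (16.1 and 32.5) and aars-1 (20.1 and 28.5). In the band of replicate 1 alone 0 of 19 such genes had a region, and in that of replicate 2 alone 4 of 20. Translation factors stood at 4 of 23, with eef-1B.2 (19.4 and 33.3), the cap-binding protein gene ife-3 (37.6 and 18.4), eif-6 and eif-2alpha (28.8 and 15.1). Genes of the vacuolar ATPase stood at 2 of 11 (vha-15, 25.3 and 34.2; vha-2, 23.0 and 26.8). Those of oxidative phosphorylation stood at 2 of 16, isp-1 of respiratory complex III (26.2 and 29.3) and cox-10 (17.5 and 35.1).

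Some lists held promoter regions that were very unequal between replicates. Autophagy genes stood at 2 of 9. The region 35 bp upstream of lgg-1, which encodes the worm ATG8 homologue, had a signal of 50.2 in replicate 1, the highest there of all sub-threshold regions (rank 541), and matched no listed region of replicate 2. That of atg-18 had closer signals (23.5 in replicate 1 at rank 3490 and 22.1 in replicate 2 at rank 4558). The region 197 bp upstream of lin-14, a heterochronic gene that acts in early larval stages, ranked 3310 in replicate 1 (24.0) and 666 in replicate 2 (53.99), and it was the one called of 2 heterochronic genes. Stress enzymes and hsp-16 genes stood at 2 of 13 with gst-7 (15.7 and 30.6) and gst-1 (20.6 and 22.7). The cell cycle list stood at 1 of 12 with cdk-11.2 (16.9 and 36.0), and histones at 1 of 10 with his-72, an H3.3 gene (23.4 and 21.9).

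Nuclear hormone receptors stood at 9 of 89 (10.1%), led by nhr-256, nhr-57 (31.4 in replicate 1 and 22.4 in replicate 2), nhr-142 (11.5 and 41.3) and nhr-58 (16.6 and 36.9). Chemosensory receptors stood at 1 of 153 (0.654%, Wilson interval 0.115 to 3.61%), and that one, at sri-18, was high in replicate 1 only (40.2 and 12.4). Neuropeptide genes stood at 2 of 41, with nlp-33 (21.4 and 27.3) and nlp-31 (rank 4190 in replicate 1 and 5077 in replicate 2). Homeobox genes stood at 1 of 20 with ceh-23 (21.7 and 22.6), F-box genes at 1 of 30 with fbxc-44 (18.8 in replicate 1 and no region in replicate 2) and T-box and bHLH genes at 0 of 8. Cuticle collagens stood at 4 of 31, with col-2 (20.5 and 31.0), col-147 (24.0 and 17.96), col-85 (25.3 and 22.3) and col-83 (19.5 and 20.3). Muscle genes stood at 1 of 10 with act-4, an actin gene (34.1 and 28.3), and ztf genes at 1 of 8 with ztf-3 (20.9 and 25.2). No pooled region lay within 500 bp of a start site of ztf-4 itself, and the highest near unc-119 ranked 4822 with a pooled signal of 37.7, below the sub-threshold band.

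In the bands of the single replicates, several of these counts stood apart from the pooled ones by more than 1.5 times. There, 620 of 5921 protein-coding genes (10.5%) had a region in replicate 1 and 708 of 6042 (11.7%) in replicate 2. Histones stood at 6 of 9 in replicate 1 and 4 of 9 in replicate 2, far above their pooled count. Chromatin regulators stood at 3 of 23 in replicate 1 (13.0%), near the share of all genes, and at 7 of 19 in replicate 2 (36.8%). Autophagy genes stood at 4 of 9 in replicate 1 and 0 of 6 in replicate 2, proteasome genes at 2 of 16 and 8 of 20, and oxidative phosphorylation at 5 of 16 and 3 of 13. Spliceosome and SR protein genes stood at 1 of 12 in replicate 1 and 4 of 14 in replicate 2, translation factors at 5 of 18 and 4 of 20, and stress enzymes at 4 of 16 and 1 of 14. Chaperones moved less, with 6 of 19 in replicate 1 and 5 of 24 in replicate 2. Nuclear hormone receptors stood at 8 of 96 in replicate 1 and 5 of 91 in replicate 2, cuticle collagens at 3 of 33 and 1 of 30, and neuropeptides at 2 of 43 and 1 of 41. Chemosensory receptors stayed low, at 2 of 220 in replicate 1 and 1 of 159 in replicate 2. The lists with at most 1 pooled gene, other than histones, had 0 to 2 genes in either replicate, and the vacuolar ATPase list had 2 in each.

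**Figure D5:**
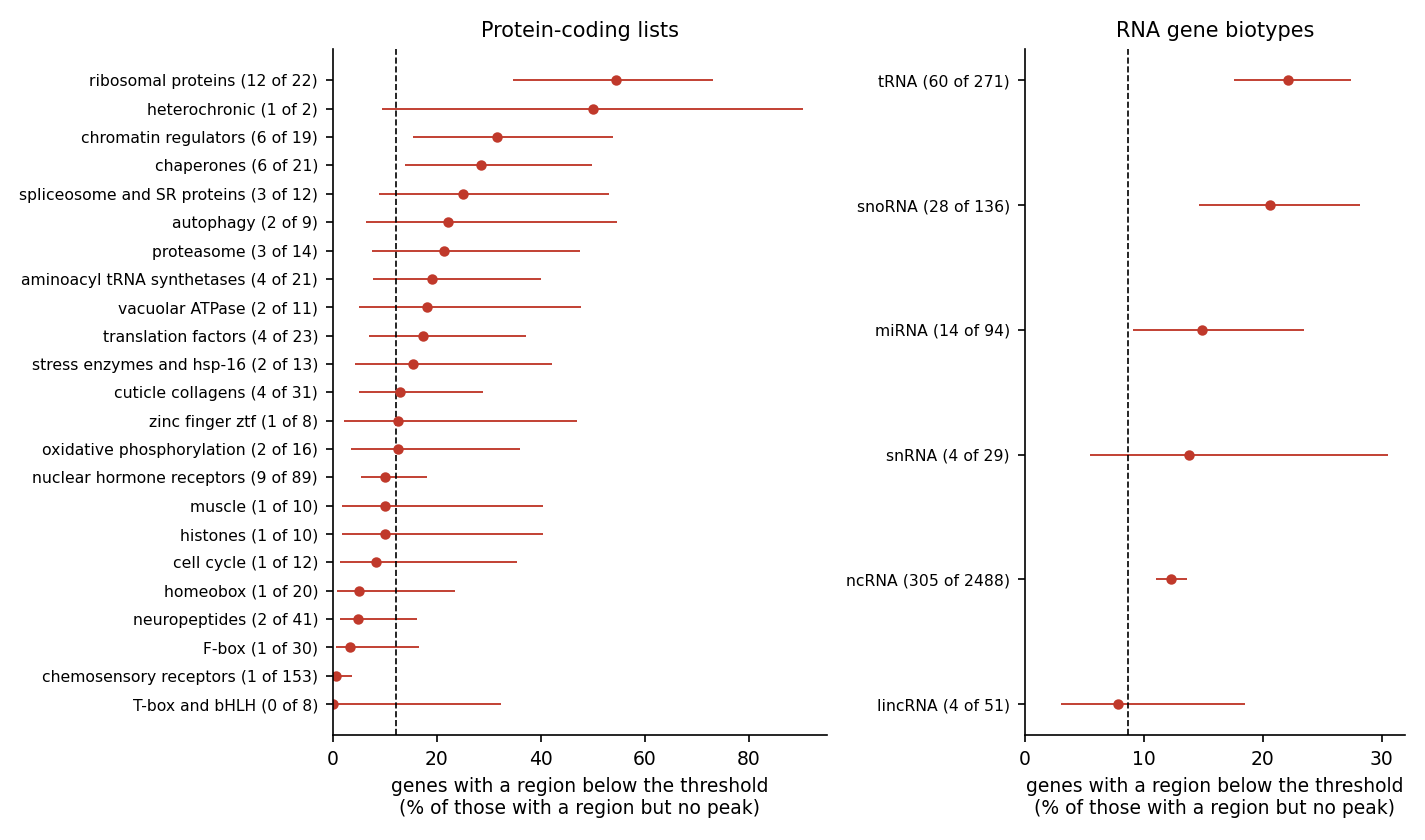
Share of genes with a sub-threshold region (x axis, %) among those with a pooled region but no peak within 500 bp of a start site, per list, with 95% Wilson intervals; counts are in brackets. Dashed lines are 12.2% for all protein-coding genes and 8.64% for genes of all biotypes; ribosomal proteins (54.5%) had the highest share and T-box and bHLH genes (0 of 8) the lowest, and chemosensory receptors (0.654%) had an interval wholly below both lines.

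Among genes of all biotypes, 1234 of 14277 with a pooled region and no peak (8.64%) had a sub-threshold region. Transfer RNA genes stood at 60 of 271 (22.1%, Wilson interval 17.6 to 27.5%), near 52 distinct regions. The highest, with signals of 28.3 in replicate 1 and 34.8 in replicate 2, lay between transfer RNA genes at chrX:13448677-13448748 and chrX:13448873-13448954, and its summit sequence is the one shown beside a transfer RNA gene. Small nucleolar RNA genes, which guide modification of other RNAs, stood at 28 of 136 (20.6%). The highest by pooled signal were at W01C9.6 (26.5 and 29.3), ZK643.9 (26.5 and 35.3), T06C12.16 (31.2 and 30.9) and C05H8.3 (28.1 and 26.5). MicroRNA genes stood at 14 of 94 (14.9%), with mir-71, mir-4932 (14.9 and 38.9) and a region shared by mir-55b and mir-56 (21.9 and 39.1). The snRNA genes stood at 4 of 29, with C47F8.9 (26.6 and 24.5), T11F9.16 (29.8 and 20.4) and the SL2 spliced leader genes sls-2.6 (25.04 and 43.1) and sls-2.3 (16.1 and 43.4). Long intergenic noncoding RNA genes stood at 4 of 51, with linc-44 (18.4 and 41.2), linc-82 (12.04 and 38.0), linc-73 (28.2 and 17.7) and linc-124 (23.6 and 24.7). Other noncoding RNA genes stood at 305 of 2488 (12.3%), with F02D10.11 and Y41C4A.31 beside regions already named, T05A12.7 (21.96 and 29.2) and F13D11.20 (36.6 and 20.6).

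The noncoding lists also differed between the bands of the single replicates, where 8.23% of all genes had a region in replicate 1 and 8.65% in replicate 2. MicroRNA genes stood at 9 of 92 in replicate 1 (9.78%) and 4 of 83 in replicate 2 (4.82%), both below their pooled share. The snRNA genes stood at 6 of 33 in replicate 1 and 1 of 26 in replicate 2, and long intergenic noncoding RNA genes at 7 of 64 and 11 of 70. Transfer RNA genes (17.8% in replicate 1 and 21.1% in replicate 2) and small nucleolar RNA genes (24.0% and 20.9%) stayed above all genes in both bands.

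Of the 1066 sub-threshold regions outside promoters, 829 (77.8%) had no start site within 500 bp of any other annotated gene. The share was 70.8% of peaks outside promoters, 81.5% of the next band and 83.0% of the tail. Transfer RNA genes lay near 41 of the 1066 (3.85%), against 4.63% of such peaks, 1.96% of the next band and 0.582% of the tail. Genes of piRNAs lay near 3.19%, against 3.23%, 4.90% and 8.10%. A region can be near more than one kind, and these shares were not tested.

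The sequence around sub-threshold summits lay between that of peaks and that of the tail. Median GC content within 50 bp was 39.6%, against 45.5% in peaks, 35.6% in the next band and 31.7% in the tail. Repeat-masked bases made up a median of 21.8% of the window, against 17.8%, 25.7% and 39.6%. Among sub-threshold regions GC content varied with the class. It was 49.5% at exons of noncoding genes, 40.6% in promoters, 37.6% between genes, 36.6% in introns and 30.7% in 3′ UTRs.

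The words of 6 bases were counted on both strands together, as present or absent within 50 bases of the summit, and many differed in frequency from the tail. Of all such words, 608 (29.2%) were more frequent in sub-threshold regions and 277 (13.3%) less frequent, by Fisher's exact test with an adjusted p under 0.05. With windows stratified by GC content in steps of 5 percentage points (a Mantel-Haenszel test), 144 (6.92%) were more and 100 (4.81%) less frequent. GAGAGA was in 19.8% of sub-threshold windows and 5.86% of the tail (odds ratio 3.97, 3.47 to 4.56, Fisher's exact adjusted p = 5.71e-71), and its odds ratio at matched GC content was 2.45. AGAGAG was in 17.4% and 4.61% (2.65 at matched GC content), AAGAGA in 19.7% and 8.12% (2.19), AGAGAA in 21.6% and 10.4% (2.06) and AAAAGA in 26.9% and 19.8% (1.70). These 5 overlap one another and had the lowest p at matched GC content. Of these, AAAAGA is marked in the window beside a transfer RNA gene, and the others account for the capitals near oct-2, gln-3 and rsu-1. Words less frequent than in the tail at matched GC content were led by AAAATT (27.1% against 50.6%, odds ratio 0.623), CTGAAA (9.66% against 19.6%, 0.546) and CCAAAA (10.4% against 19.3%, 0.569). Poly-A, AAAAAA, was in 34.5% and 50.8%, and at matched GC content did not pass (0.902, Mantel-Haenszel chi-square adjusted p = 0.264).

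Against peaks, GC content accompanied nearly all of the differences in words. Without strata, 215 words (10.3%) were more frequent and 215 (10.3%) less frequent in sub-threshold regions, and at matched GC content 4 (0.192%) and 4 (0.192%). GAGAGA was in 19.8% against 26.9% of peaks, and at matched GC content its odds ratio was 0.929 (Mantel-Haenszel chi-square adjusted p = 0.837). Of the 144 words more frequent than in the tail at matched GC content, 2 were less and 1 more frequent past the threshold against peaks, and the median odds ratio of the 144 against peaks was 0.967. The words less frequent in sub-threshold regions at matched GC content all hold the letters CG. They were GAGCGC (3.88% against 10.03% of peaks, odds ratio 0.538, Mantel-Haenszel chi-square adjusted p = 0.0270), AAGCGC (1.68% against 5.69%, 0.376, adjusted p = 0.00521), AGCGCG (2.95% against 7.97%, 0.518, adjusted p = 0.0344) and TACGCA (2.54% against 5.69%, 0.482, adjusted p = 0.0327). The words more frequent were CTGGAA (6.25% against 2.45%, 2.38, Mantel-Haenszel chi-square adjusted p = 0.00305), AAAGGA (10.2% against 5.96%, 1.65, adjusted p = 0.0318), ACCTTG (3.70% against 1.78%, 2.32, adjusted p = 0.0318) and GAAGCC (3.12% against 1.51%, 2.603, adjusted p = 0.0318). CTGGAA was in 7.601% of the tail, above its share in sub-threshold regions.

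By class of sub-threshold region, GAGCGC was in 7.09% of promoter windows, 2.34% of intron windows and 1.89% of intergenic windows, and in peaks in 15.1%, 6.02% and 5.06%. GAGAGA was in 18.7% of promoter, 19.6% of intron and 23.7% of intergenic windows, and in peaks in 23.5%, 32.5% and 32.5%. In the band of replicate 1, GAGAGA was in 17.3% and GAGCGC in 2.52% of windows, and in that of replicate 2 in 19.4% and 4.95%. The nmat-1 window, which holds GAGCGC and GACGCA, belonged to a region with signals of 12.6 in replicate 1 (rank 16215) and 44.0 in replicate 2 (rank 1088).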

How the data were processed

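The submitters deposited region lists in narrowPeak format on ce10 and ce11. Per the files' own listing, the lists came from each replicate's alignments, or both pooled, with a control. The aligner, the peak caller and the IDR level used were not given in the sources used here. Column 7 holds the authors' deposited signal, whose scaling is not given, so it ranked and described regions within a list. Where replicate signals stand side by side, equal values need not mean equal ranks. Column 9 was read as the deposited −log10 q-value, by the format's column order. The files hold no read counts, so depth is unknown and intervals cover sampling of regions only.

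Sub-threshold regions were found by rank on ce11, below the 1794 peaks (ranks 1795 to 3588; the next band ran to rank 5382). Genes came from Ensembl release 115, and sequence and repeat masking from the RefSeq genome (WBcel235, the same assembly). Classes were assigned by the summit in the order promoter, 5′ UTR, coding exon, 3′ UTR, noncoding exon, intron, intergenic. A replicate's value for a region is that of its highest listed region overlapping by 1 bp or more. Shares carry 95% Wilson intervals. Word windows were 101 bases. Two-sided Fisher's exact tests gave odds ratios with 95% log-odds intervals, with Benjamini-Hochberg adjustment over 7 classes, 6 chromosomes, 2080 words and, for position, families of 4 tests. Against the next band each family was adjusted by itself. The Fisher word test was tried on simulated data in which words were drawn independently. The word test at matched GC content was not. Python 3.11.15, pandas 2.3.3, NumPy 2.4.6 and SciPy 1.17.1 were used.

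The regions, the 29 gene lists and the tests were chosen with earlier results of these data known. Named were the genes nearest to the 20 highest regions with a start site within 1000 bp, up to 4 genes per list, the 5 most unequal regions in each direction, the 5 best by their worse rank, ztf-4 and unc-119. The word windows were the highest regions off chromosome I holding the 5 leading words, which gave 4 windows. Further members of the set in the top of both replicates, lgg-1 in its ranks, and the last windows were chosen after their values were seen.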

Additional observations from a re-analysis of the deposited data

How the results depend on the processing

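Where a replicate was left out, the band of the other replicate was compared with that replicate's own top and own tail. The promoter share, the upstream share and nearness to a peak kept their direction and passed the threshold in each setting run, the next band included. Their odds ratios ran from 0.604 to 0.738 (promoters against peaks), 1.21 to 2.23 (promoters against the tail or next band), 0.433 to 0.553 and 1.45 to 2.79 (upstream share) and 1.399 to 4.63 (within 1000 bp of a peak). Start sites of 2 or more genes against the tail ran from 1.60 to 4.61, and against peaks were 0.766 with the weaker 897 peaks and 0.743 at 250 bp, neither past the threshold.

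Counts of calls moved more, and the cause was not tested. Some settings held fewer regions or matched GC content, and their effect was not separated from other differences. Classes called against peaks were 4 to 5 when either replicate was left out (3 in the pooled list), 2 in the upper 862 and 2 against the weaker 897 peaks, and 4 at 250 bp. Coding exons and exons of noncoding genes passed without either replicate, and coding exons at 250 bp; 3′ UTRs did not pass without replicate 2, in the upper 862 or against the weaker 897 peaks. Chromosomes called against peaks were 0 to 1 without a replicate, 1 in the lower 867 regions of the band and 1 over 1000 bp from any peak (IV each time). Against the tail they were 2 without either replicate (V each time, with II or III), 0 in the lower 867 and 0 against the next band. Words more and less frequent than in the tail were 365 to 581 and 147 to 277 without a replicate, 316 and 120 in the lower 867, 19 and 22 against the next band, and 144 and 100 at matched GC content. Against peaks they were 139 to 178 and 164 to 261 without a replicate, 46 and 45 in the upper 862, 25 and 16 against the weaker 897 peaks, and 4 and 4 at matched GC content.

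Odds ratios that changed side all lay near 1 or rested on few regions, and none had passed in the setting reported. Against peaks, 5′ UTRs were 0.587 to 1.33 without a replicate and 0.832 in the upper 862, exons of noncoding genes 1.08 at 1000 bp and intergenic sequence 0.940 at 250 bp. Chromosome I was 0.872 to 1.00 without a replicate, 1.00 in the lower 867, 1.01 over 1000 bp from any peak and 1.07 against the weaker 897 peaks; II was 1.02 in the upper 862 and against the weaker 897 peaks, and V 0.960 to 1.10 without a replicate. Against the tail, 5′ UTRs were 0.863 to 1.87 without a replicate, 0.790 in the upper 862, 0.451 against the next band, 0.836 at 250 bp and 0.737 at 1000 bp, and 3′ UTRs were 0.980 to 1.07 without a replicate. Intergenic sequence was 1.04 without replicate 2 and against the next band, 1.03 without replicate 1, 1.01 in the lower 867 and 1.16 at 250 bp, where it passed (Fisher's exact adjusted p = 0.00601). Chromosome V was 1.13 against the next band.

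On ce10 there were 1719 such regions with signals of 43.3 to 60.3. No paired analysis was possible because there is 1 group. Depth is unknown, 2 replicates give no test of a single region, and no control or untagged sample was analysed here.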
